A study of Mus musculus with 4 samples.

Results

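The genes described here build cholesterol and fatty acids or regulate that synthesis, and they were followed in mouse kidney ureteric buds exposed to angiotensin II (AngII). The set was given by name: 30 genes, taken from the probes whose annotated accession maps to those symbols, of which 29 were found and tested among 14995 features. Idi1, an isomerase of the mevalonate route, had no probe with a matching accession and was not analysed here. The AngII group was intact ureteric buds exposed to 1e-05 M AngII, the vasoactive peptide hormone, for 6 h. The media group was intact ureteric buds kept in media alone for 6 h. Both groups were held in matrix gel on an insert with 10% serum, 100 ng/ml of the growth factor GDNF and 100 ng/ml of the growth factor HGF. The sources used here give no genotype, strain or age, and do not say how many animals or buds went into an RNA. The labels number 2 pairs of AngII and media RNA. Each pair was read on 2 two-colour arrays, once with AngII in Cy5 and once with AngII in Cy3, which makes 4 arrays.

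Cholesterol is built from acetyl-CoA through mevalonate and farnesyl diphosphate to squalene, which is closed to lanosterol and trimmed in steps to cholesterol. Fatty acids start from the same acetyl-CoA, which is carboxylated, assembled into palmitate, elongated and desaturated. The SREBP transcription factors drive both routes: when membrane sterol is low, SCAP escorts SREBP to the Golgi, where it is cut and released, and when sterol is high the INSIG proteins hold SCAP and SREBP in the endoplasmic reticulum.

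The 2 numbered pairs did not differ beyond array noise. Their half-difference had an SD over features of 0.0376 log2 units, against 0.0370 for a contrast of array noise. Tested with limma, 0 features differed between the pairs after adjustment and 771 before it, at p under 0.05. The 2 pairs are therefore counted as 1 independent pair, n = 1, and no p-value below measures the spread between cultures or animals. In the main test the p-value rests on the spread between the 2 numbered ratios, each averaged over its dye swap. That spread was taken mostly from all features together. A gene's own 2 ratios moved limma's SE little: it was 0.0340 for Cyp51, at a half-difference of 4.4e-05, and 0.0393 for Acaca, at -0.102. The p-value leaves out the difference between the dye orientations. Ratios on arrays of the same dye orientation correlated across features at 0.96 and 0.97, and those of the arrays of a dye swap at 0.67 and 0.68, so the dye orientation separated the arrays more than the pair number did. Ratios are therefore given for each array. Of 14 markers of the ureteric epithelium 13 were tested, 7 higher and 4 lower in AngII. Summed intensities of the 14 were 262568 to 289254 in AngII RNA and 280912 to 350870 in media RNA. Such sums are unlogged, so bright genes weigh most and they do not measure the amount of a cell type. The brightest tested ureteric markers were Krt18 and Krt8, at log2 ratios of -0.03 and -0.59. The brightest tested marker of adipocytes and hepatocytes was Fabp4, at 1.11. Ret, a defining marker of the ureteric tip, was not well above background on any array. Nephron progenitor and differentiating nephron markers, 9 tested of 10, were 4 higher and 4 lower. Their sums were 6743 to 8266 in AngII RNA and 6051 to 6763 in media RNA. Endothelial markers, 7 tested of 8, were 1 higher and 5 lower. Their sums were 1755 to 1967 in AngII RNA and 1881 to 2163 in media RNA. Of 10 erythroid markers 9 were tested and 8 were higher in AngII, with summed intensities of 33212 to 41098 in AngII RNA and 6647 to 7929 in media RNA. Of 10 markers of adipocytes and hepatocytes 3 were tested and 2 were higher, with summed intensities of 1850 to 2203 in AngII RNA and 1168 to 1452 in media RNA, and Apoa1, Apoa2, Lep and Ttr were not well above background on any array. Of 10 stromal markers 9 were tested, 5 higher and 2 lower, with summed intensities of 43246 to 48953 in AngII RNA and 33996 to 40013 in media RNA. Of 9 leukocyte markers 7 were tested, 3 higher and 3 lower, with sums of 911 to 959 in AngII RNA and 816 to 869 in media RNA, and Itgam and Lyz2 were not well above background on any array. Of 8 neuronal markers 3 were tested, 0 higher and 2 lower, with sums of 807 to 903 in AngII RNA and 1047 to 1102 in media RNA, and Snap25 was not well above background on any array. The part of these cells in the lipid gene values was not tested, and in whole buds fewer cells of a type and less RNA per cell cannot be told apart.

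Of the 29 genes, 11 were higher and 16 lower in AngII with limma at a Benjamini-Hochberg adjusted p under 0.05, and 2, Fdps and Acaca, did not pass. That is 93.1% of them, beside 77.3% of all features tested (39.1% higher and 38.1% lower). Brighter features passed more often, and the genes of this set were bright: among the 6300 features with a mean log2 intensity of 9 or more, a limit chosen after the values were seen, 84.3% passed, and of the 27 genes of the set above that limit 26 passed. Because most features passed, the size of a ratio says more here than its call. The median log2 ratio of AngII over media was -0.12 over the 29 genes and 0.00 over all features. At least 1.5-fold higher were 3 genes, Ebp, Scd2 and Tm7sf2, and at least 1.5-fold lower were 2, Srebf2 and Fdft1. None of these genes had more than 1 tested probe, so their ratios have no check at another probe. Further probes of Srebf2 and Fdft1 were too dim to be tested. Over all features 5.5% were at least 1.5-fold higher and 5.4% at least 1.5-fold lower.

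The genes did not move in one direction, and 19 of the 29 had the same sign on all 4 arrays (65.5%, beside 59.1% of all features). On all 4 arrays 8 were higher in AngII (27.6%, beside 31% of all features) and 11 were lower (37.9%, beside 28.1%). Under each of the 12 alternatives that give a test, 9 genes passed in the same direction (31.0%), beside 30.4% of all features, so this share lay at the background. Fdft1, Lss, Msmo1, Srebf2, Insig1 and Stard4 were lower in AngII under every one of them, and Nsdhl, Ebp and Scd2 were higher. With the replicate number as a block on the 4 arrays, the difference between dye orientations enters the spread. There 9 genes of the set (31.0%) and 4641 features (31% of all) passed. Tm7sf2, Hmgcs1, Fasn and Scd1 were among those that did not, at limma adjusted p of 0.0537, 0.219, 0.13 and 0.143. With a dye term added to that block 27 genes and 11415 features passed. With AngII in Cy3 alone 16 genes of the set passed (55.2%), beside 75.4% of all features.

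**Figure D1:**
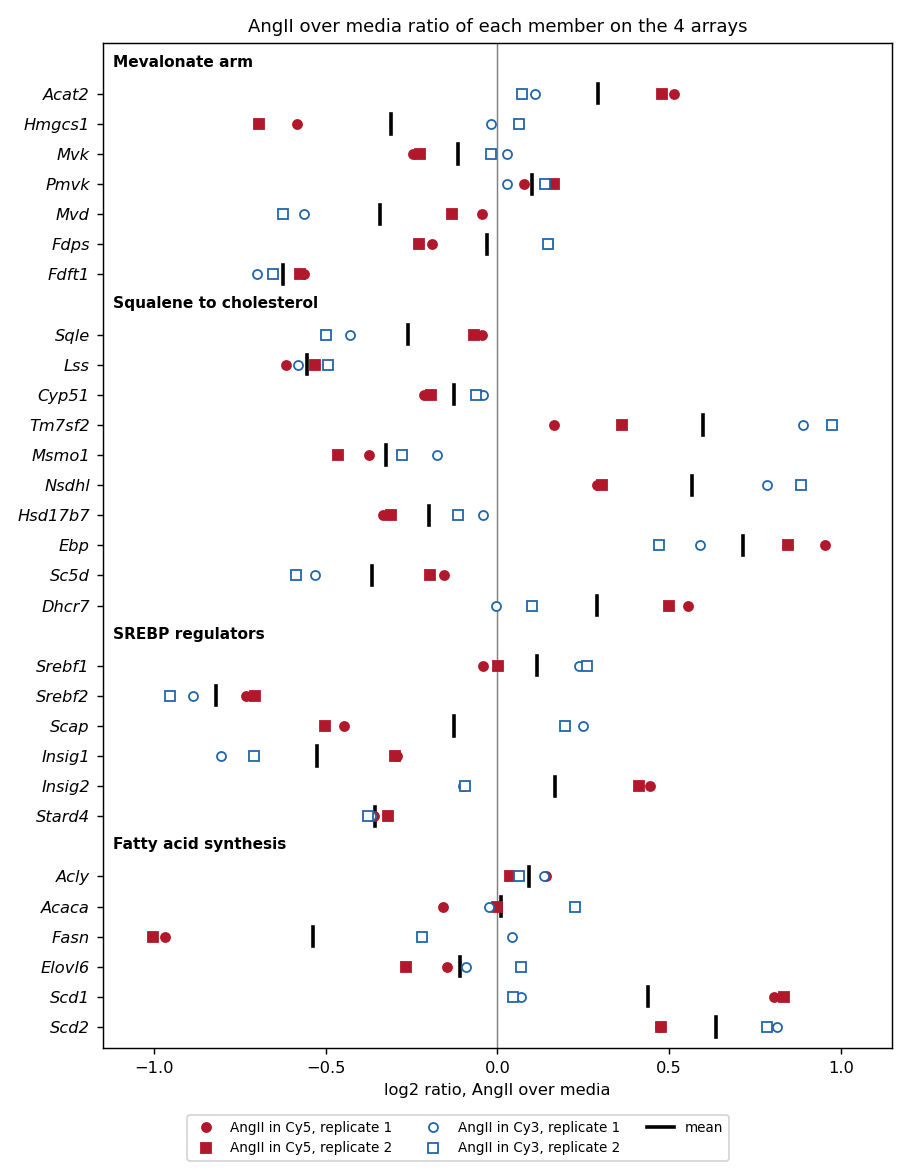
The log2 ratio of AngII over media (x axis) is plotted for each of the 29 genes (y axis, grouped by role). Filled red points are arrays with AngII in Cy5, open blue points arrays with AngII in Cy3, circles replicate 1, squares replicate 2, and black bars the mean of the 4 arrays. Srebf2, Fdft1 and Lss sit left of 0 on every array and Ebp, Scd2, Tm7sf2 and Nsdhl right of 0 on every array, while Scap and Insig2 change side with the dye.

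The promoters of 5 genes are printed so that the letters near the start of lower genes (Srebf2, Lss and the well-known SREBP target Hmgcs1) and higher genes (Ebp, Tm7sf2) can be set side by side. Each is the 250 bases before the annotated start, 5′ to 3′ along the gene, from RefSeq on GRCm38.p6. Hmgcs1 lies at chr13:119690101-119690350 on the plus strand, Srebf2 at chr15:82147019-82147268 on the plus strand and Lss at chr10:76531355-76531604 on the plus strand. Ebp lies at chrX:8193513-8193762 on the minus strand and Tm7sf2 at chr19:6067851-6068100 on the minus strand. Capitals mark exact matches to CCAAT, the box bound by NF-Y, and to TCACNCCAC, a form of the sterol regulatory element (SRE). In these windows each CCAAT is read on the opposite strand and so appears as ATTGG.
Hmgcs1: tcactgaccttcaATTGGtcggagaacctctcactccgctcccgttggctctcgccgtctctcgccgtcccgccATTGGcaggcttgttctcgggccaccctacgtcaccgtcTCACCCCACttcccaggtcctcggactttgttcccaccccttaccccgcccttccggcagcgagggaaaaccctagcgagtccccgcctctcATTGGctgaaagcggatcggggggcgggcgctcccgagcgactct
Srebf2: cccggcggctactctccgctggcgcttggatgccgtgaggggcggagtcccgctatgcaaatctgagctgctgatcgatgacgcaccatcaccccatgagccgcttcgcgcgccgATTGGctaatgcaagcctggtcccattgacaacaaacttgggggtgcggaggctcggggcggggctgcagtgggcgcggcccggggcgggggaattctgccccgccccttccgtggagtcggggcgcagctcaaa
Lss: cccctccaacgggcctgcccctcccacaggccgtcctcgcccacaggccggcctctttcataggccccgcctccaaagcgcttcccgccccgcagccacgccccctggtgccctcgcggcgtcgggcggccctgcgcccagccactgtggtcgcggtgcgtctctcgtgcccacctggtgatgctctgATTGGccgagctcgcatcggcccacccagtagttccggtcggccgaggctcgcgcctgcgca
Ebp: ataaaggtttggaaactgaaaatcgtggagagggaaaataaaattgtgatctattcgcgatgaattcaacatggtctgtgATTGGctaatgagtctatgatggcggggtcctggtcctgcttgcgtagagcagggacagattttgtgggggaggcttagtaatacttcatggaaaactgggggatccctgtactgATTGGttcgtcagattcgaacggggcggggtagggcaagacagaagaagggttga
Tm7sf2: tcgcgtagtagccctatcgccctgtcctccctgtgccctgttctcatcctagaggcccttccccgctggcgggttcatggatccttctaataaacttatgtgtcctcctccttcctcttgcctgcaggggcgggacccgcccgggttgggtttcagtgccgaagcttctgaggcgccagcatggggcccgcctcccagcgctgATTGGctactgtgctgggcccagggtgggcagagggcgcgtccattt
Hmgcs1 held 3 CCAAT boxes and the SRE, and its mean log2 ratio was -0.31. With AngII in Cy3 alone it was 0.02, and a second probe averaged 0.02, with opposite signs in the dye orientations. Srebf2 and Lss held 1 CCAAT box each and were lower in AngII, and Ebp with 2 and Tm7sf2 with 1 were higher, so the box stands in genes of both directions.

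Promoter entries were matched for 24 of the 30 genes. Searched on both strands, CCAAT was found in 19 of the 24 (79.2%), beside 37.5% of 27025 genes with an entry and 40.6% of the 9136 tested genes with one. Of these 19, 11 were lower and 7 higher in AngII and the remaining gene is Idi1. The GC box GGGCGG was found in 20 of the 24 (83.3%), beside 35.4% of all genes and 64.2% of tested genes, and the E-box CACGTG in 5 (20.8%), beside 6.86% and 9.98%. The SRE letters TCACNCCAC were found in Hmgcs1 alone of the 24, and in 1.23% of all genes. Only exact matches were counted, so a promoter without one may still hold a near match. The shorter core CACNCCAC, which lies inside those letters, was found in Acat2, Hmgcs1 and Insig1 (12.5%), beside 6.0% of all genes and 6.9% of tested genes. A match describes the letters and is no measure of binding.

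The mevalonate arm, from acetyl-CoA to squalene, had 7 tested genes, of which 2 were higher in AngII, 4 were lower and Fdps did not pass. Their median log2 ratio was -0.12. Fdft1, squalene synthase, which commits farnesyl diphosphate to sterols, was the lowest of them. Its levels, normalised log2 intensities listed as AngII in Cy5 replicates 1 and 2 and then AngII in Cy3 replicates 1 and 2, were 11.97, 11.42, 11.74 and 11.82 in AngII RNA, against 12.53, 11.99, 12.44 and 12.47 in media RNA. Every AngII value lay below every media value. The log2 ratios on those arrays were -0.56, -0.58, -0.70 and -0.65. The mean was -0.62 ± 0.034, a fold of 0.649 with a limma adjusted p of 1.22e-15. The value after ± is limma's SE, taken mostly from the spread between the numbered ratios over all features.

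Hmgcs1, the cytosolic HMG-CoA synthase, had levels in the same array order of 12.50, 13.07, 13.50 and 13.60 in AngII RNA, against 13.09, 13.77, 13.52 and 13.54 in media RNA. The groups overlapped, and the difference lay in the arrays with AngII in Cy5, where the log2 ratios were -0.58 and -0.69, whereas those with AngII in Cy3 gave -0.02 and 0.06. The mean was -0.31 ± 0.034 (limma adjusted p = 3.58e-09). From the arrays with AngII in Cy3 alone it was 0.02, with an adjusted p of 0.669.

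The other genes of this arm had smaller ratios. Mvd, which decarboxylates mevalonate diphosphate, averaged -0.34 on the log2 scale and ranged from -0.62 to -0.05 over the 4 arrays, and with AngII in Cy5 alone it was -0.09 and did not pass (adjusted p = 0.14). Acat2, a cytosolic acetyl-CoA acetyltransferase, averaged 0.29 and ranged from 0.07 to 0.51. Mvk, mevalonate kinase, averaged -0.12 (-0.25 to 0.03), and Pmvk, phosphomevalonate kinase, 0.10 (0.03 to 0.16). Fdps, farnesyl diphosphate synthase, averaged -0.03 (-0.23 to 0.15) with a limma adjusted p of 0.404. Mvk, Pmvk and Acat2 did not pass with AngII in Cy3 alone.

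The arm from squalene to cholesterol had 10 tested genes, 4 higher and 6 lower in AngII, with a median log2 ratio of -0.16. Up to lanosterol, squalene epoxidase (Sqle) and the cyclase that makes lanosterol (Lss) were lower. Of the 8 genes that act after lanosterol, 4 were higher: Tm7sf2 (a C14 reductase), Nsdhl (a C4 dehydrogenase), Ebp (the isomerase of the ring double bond) and Dhcr7 (the last reductase of one branch). The other 4, Cyp51 (the C14 demethylase), Msmo1 (the C4 methyl oxidase), Hsd17b7 and Sc5d, were lower.

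Lss had levels of 9.34, 9.47, 9.27 and 9.24 in AngII RNA, against 9.95, 10.00, 9.85 and 9.73 in media RNA, with no overlap. Its log2 ratios of -0.62, -0.53, -0.58 and -0.49 were close to each other in both dye orientations. The mean was -0.56 ± 0.035, a fold of 0.681 with a limma adjusted p of 3.05e-14, and a second probe of the gene averaged -0.57. Sqle, often described as a rate-limiting enzyme of the route after HMG-CoA reductase, had levels of 13.36, 13.40, 13.42 and 13.28 in AngII RNA, against 13.41, 13.47, 13.85 and 13.78 in media RNA. The AngII levels were alike on the 4 arrays and the media levels stood apart in the arrays with AngII in Cy3 only. Its log2 ratios were -0.05, -0.07, -0.43 and -0.50 with a mean of -0.26 (limma adjusted p = 9.73e-08), and with AngII in Cy5 alone it was -0.06 and did not pass (adjusted p = 0.36).

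Ebp was the highest gene of the set. Its levels were 13.12, 13.30, 12.92 and 12.62 in AngII RNA, against 12.17, 12.46, 12.33 and 12.15 in media RNA, and the groups did not overlap. The log2 ratios were 0.95, 0.84, 0.59 and 0.47 and the mean was 0.71 ± 0.036, a 1.64-fold higher level in AngII (limma adjusted p = 1.71e-16). Of all features, 6.37% had a larger absolute ratio.

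Tm7sf2 had levels of 10.78, 10.69, 11.28 and 11.26 in AngII RNA, against 10.61, 10.33, 10.39 and 10.28 in media RNA. All AngII values exceeded all media values, by more with AngII in Cy3, where the log2 ratios were 0.89 and 0.97, than with AngII in Cy5, where they were 0.17 and 0.36. The mean was 0.60 ± 0.037 (1.51-fold, limma adjusted p = 1.56e-14). Nsdhl had levels of 9.92, 9.42, 9.56 and 10.04 in AngII RNA, against 9.63, 9.12, 8.78 and 9.16 in media RNA, which overlap between arrays although each array gave the higher value in AngII. Its log2 ratios were 0.29, 0.31, 0.78 and 0.88, with a mean of 0.57 ± 0.034 (1.48-fold, limma adjusted p = 1.4e-14) and 0.38 at a second probe.

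The remaining steps of this arm were intermediate. Msmo1 averaged -0.32 (-0.46 to -0.18) and Sc5d, the C5 desaturase, -0.37 (-0.59 to -0.15), both with levels that did not overlap between the groups. Hsd17b7, a C3 ketoreductase, averaged -0.20 (-0.33 to -0.04), and Cyp51 averaged -0.13 (-0.21 to -0.04). Dhcr7 averaged 0.29 (-0.00 to 0.55). With AngII in Cy3 alone Cyp51, Hsd17b7 and Dhcr7 did not pass, at log2 ratios of -0.05, -0.08 and 0.05. As a mean over its probes Cyp51 was -0.0068 (adjusted p = 0.85).

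**Figure D2:**
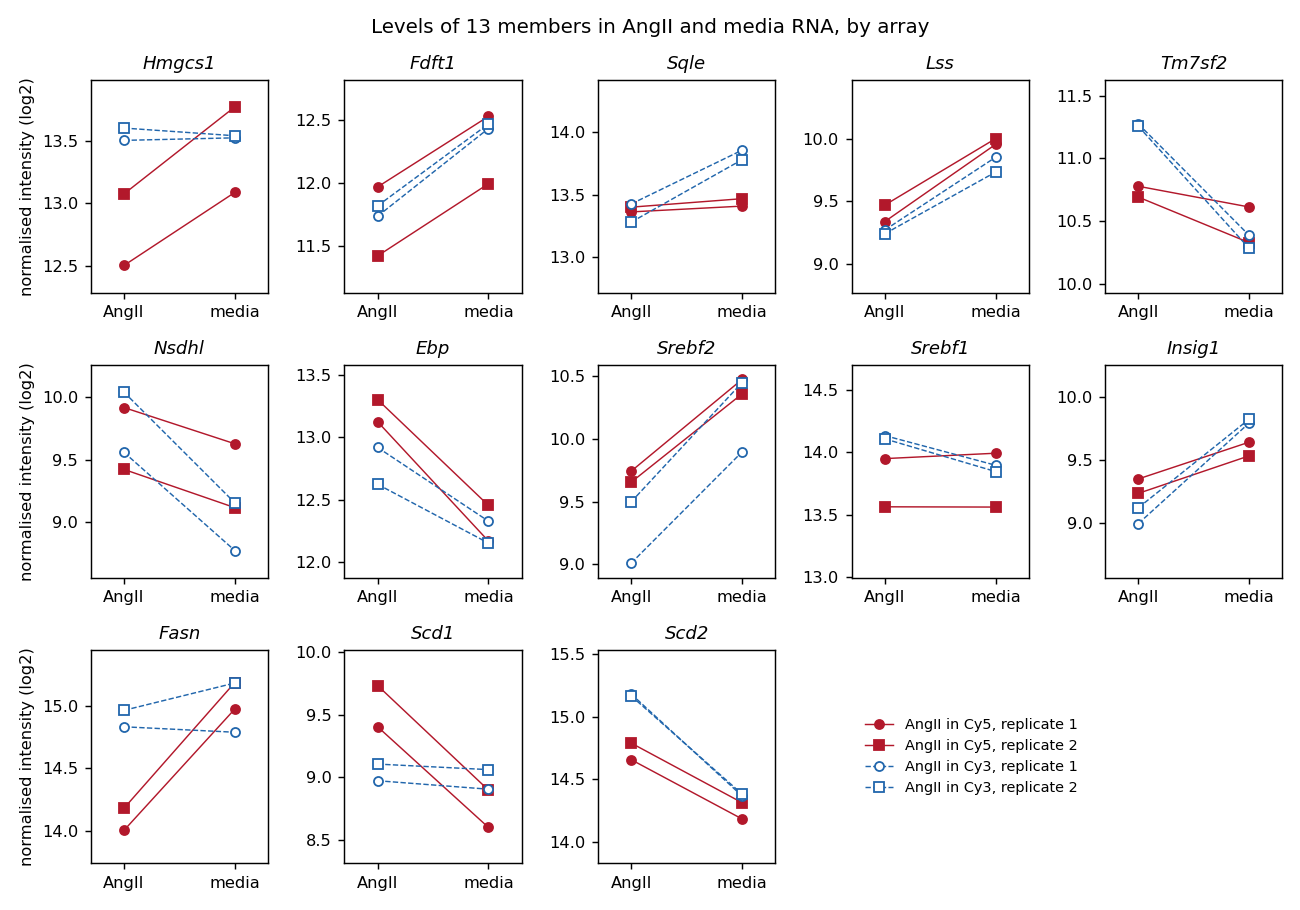
Normalised log2 intensities (y axis) of 13 genes of the set in AngII RNA and media RNA (x axis), with each line joining the 2 channels of 1 array. Solid red lines are arrays with AngII in Cy5, dashed blue lines arrays with AngII in Cy3, circles replicate 1 and squares replicate 2. All 4 lines of Srebf2, Fdft1 and Lss run from a lower AngII value to a higher media value and those of Ebp and Scd2 the other way, whereas in Hmgcs1, Fasn and Scd1 the lines are steep only with AngII in Cy5.

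The 6 genes grouped as regulators of the SREBP system had a median log2 ratio of -0.24, with 2 higher and 4 lower in AngII. The group counts Stard4, a sterol carrier, and its median lies between Stard4 (-0.36) and Scap (-0.13), so it depends on this placement. As a mean over a gene's probes, where Stard4 was -0.099, the median was -0.11. Srebf2, which encodes the SREBP isoform that mainly drives sterol genes, was the lowest gene of the set. Its levels were 9.74, 9.66, 9.01 and 9.50 in AngII RNA, against 10.48, 10.36, 9.90 and 10.45 in media RNA. No AngII value reached a media value, and the log2 ratios of -0.73, -0.70, -0.89 and -0.95 lay in a narrow range. The mean was -0.82 ± 0.034, a fold of 0.567 with a limma adjusted p of 2.7e-18. Of all features, 4.22% had a larger absolute ratio.

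Srebf1, which encodes the isoforms tied mainly to fatty acid genes, differed little. Its levels were 13.95, 13.56, 14.13 and 14.11 in AngII RNA, against 13.99, 13.56, 13.90 and 13.84 in media RNA, with log2 ratios of -0.04, 0.00, 0.24 and 0.26. The mean of 0.11 passed (limma adjusted p = 0.00362) but turned to -0.02 with AngII in Cy5 alone (adjusted p = 0.755). Insig1, the retention protein that is itself an SREBP target, had levels of 9.35, 9.23, 8.99 and 9.12 in AngII RNA, against 9.64, 9.53, 9.80 and 9.83 in media RNA, with no overlap. Its log2 ratios were -0.29, -0.30, -0.80 and -0.71, with a mean of -0.53 ± 0.034 (0.694-fold, limma adjusted p = 6.23e-14), and a second probe averaged -0.46.

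Insig2, a retention protein not driven by SREBP in the same way, averaged 0.17 on the log2 scale (-0.10 to 0.45) and Scap, the escort, averaged -0.13 (-0.50 to 0.25). Both changed sign with the dye orientation: Insig2 was 0.43 with AngII in Cy5 and -0.10 with AngII in Cy3, and Scap was -0.48 and 0.22. Stard4, a soluble sterol carrier, averaged -0.36 within a range of -0.38 to -0.32, and its other 2 tested probes averaged 0.01 and 0.05. As a mean over its probes Stard4 was -0.099 (limma adjusted p = 0.00888).

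The 6 fatty acid synthesis genes had a median log2 ratio of 0.05, with 3 higher, 2 lower and Acaca not past the threshold. The stearoyl-CoA desaturases, which place the first double bond, were higher and the synthase that makes palmitate was lower. Scd2 had levels of 14.66, 14.79, 15.18 and 15.17 in AngII RNA, against 14.18, 14.31, 14.37 and 14.38 in media RNA. The groups did not overlap and the log2 ratios were 0.47, 0.48, 0.81 and 0.78. The mean was 0.64 ± 0.034, a 1.55-fold higher level in AngII (limma adjusted p = 7.57e-16).

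Scd1 had levels of 9.40, 9.73, 8.97 and 9.11 in AngII RNA, against 8.60, 8.90, 8.91 and 9.06 in media RNA. The difference lay with AngII in Cy5, at log2 ratios of 0.80 and 0.83, and with AngII in Cy3 they were 0.07 and 0.04. The mean was 0.44 ± 0.034 (1.35-fold, limma adjusted p = 2.92e-12), and the arrays with AngII in Cy3 alone gave 0.06 (adjusted p = 0.228). Fasn, fatty acid synthase, had levels of 14.00, 14.18, 14.83 and 14.96 in AngII RNA, against 14.97, 15.18, 14.79 and 15.18 in media RNA. At this probe, the brightest, the log2 ratios were -0.97, -1.004, 0.04 and -0.22, so the lower value came mainly from the arrays with AngII in Cy5. The mean was -0.54 ± 0.037 (0.689-fold, limma adjusted p = 2.04e-13), and the arrays with AngII in Cy3 alone gave -0.09 (adjusted p = 0.232). A second, dimmer Fasn probe averaged -0.45 and did not share this dye pattern. It was lower on every array, at -0.37 and -0.32 with AngII in Cy5 and -0.59 and -0.51 with AngII in Cy3.

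Acly, which makes cytosolic acetyl-CoA from citrate, averaged 0.09 (0.04 to 0.14, limma adjusted p = 0.0181), and it did not pass in 8 of the 12 alternatives. Elovl6, the elongase of palmitate, averaged -0.11 (-0.27 to 0.07, limma adjusted p = 0.0051) and did not pass in 4 of the 12, among them AngII in Cy3 alone (adjusted p = 0.839). Acaca, acetyl-CoA carboxylase, averaged 0.01 (-0.16 to 0.23, limma adjusted p = 0.815), and its signal was well above background in AngII RNA on 2 of 4 arrays only. The dim Acaca value also depended on the processing, at -0.41 from Agilent's processed signals, where it passed as lower (limma adjusted p = 0.0001). With those signals the median of the 6 genes was -0.10.

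**Figure D3:**
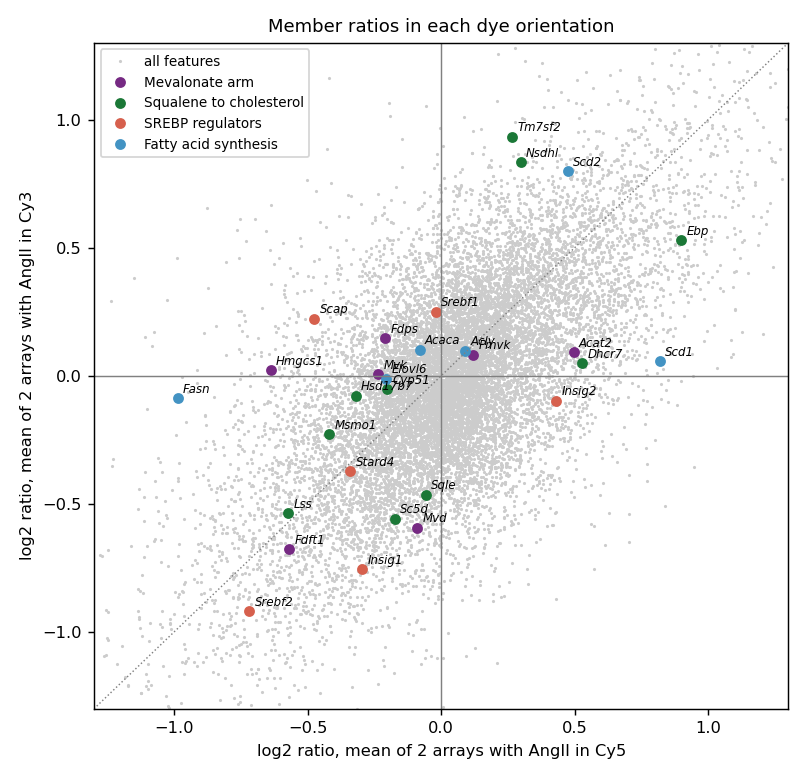
Mean log2 ratio of AngII over media on the 2 arrays with AngII in Cy5 (x axis) against that on the 2 arrays with AngII in Cy3 (y axis). Coloured points are the 29 genes by role, grey points are all features within the limits drawn, and the dotted diagonal marks equal ratios in both orientations. Srebf2, Fdft1, Lss and Stard4 lie near the diagonal, while Hmgcs1, Fasn and Scd1 lie near the x axis.

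A dye term, fitted with the treatment on the 4 arrays, passed an adjusted p under 0.05 in limma for 22 of the 29 genes (75.9%), beside 56.9% of all features. The sign of the mean ratio turned between the orientations in 7 of the 29, beside 30.9% of all features. AngII and media levels on the 4 arrays did not overlap in 9 of the 29 (31.0%), 3 with AngII higher and 6 with AngII lower, beside 33% of all features (17.9% higher and 15.1% lower).

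Of the 29 genes, 13 had more than 1 tested probe. In 6 of them, Mvk, Pmvk, Lss, Nsdhl, Insig1 and Fasn, the tested probes shared a sign. In the other 7 another tested probe had the opposite sign. The mean ratios of that dimmer probe were small: 0.02 for Hmgcs1, 0.11 for Cyp51, 0.03 for Hsd17b7, -0.00 for Dhcr7, -0.01 for Insig2, 0.01 and 0.05 for Stard4 and -0.06 for Acaca. For Hmgcs1 and Dhcr7 that mean joins opposite signs. The second Hmgcs1 probe was -0.63 and -0.62 with AngII in Cy5 and 0.71 and 0.63 with AngII in Cy3. The second Dhcr7 probe was 0.22 and 0.15, then -0.14 and -0.24. The gene values above are those of the brightest probe.

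**Figure D4:**
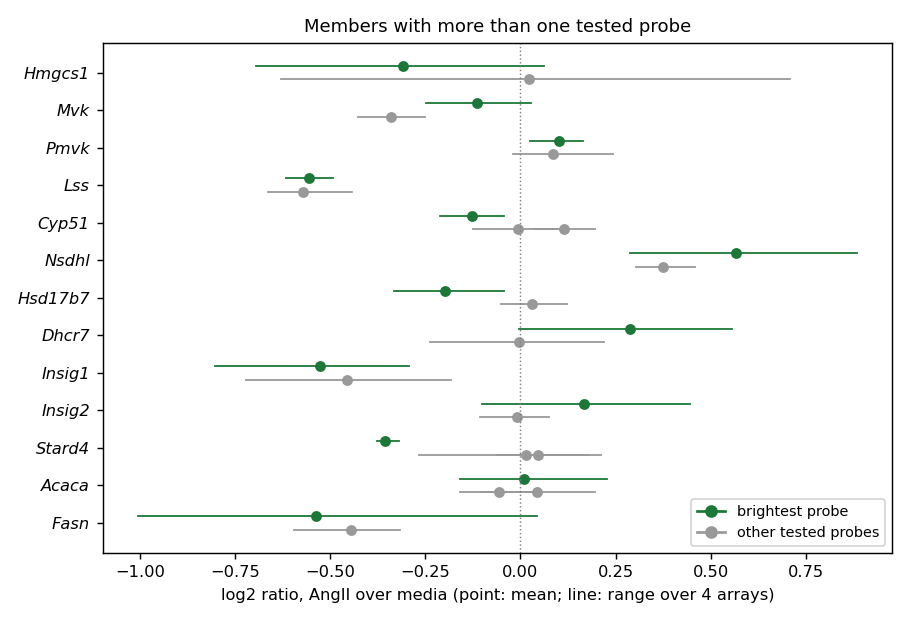
Mean log2 ratio of AngII over media (x axis) for each tested probe of the 13 genes with more than 1 tested probe (y axis), with lines for the range over 4 arrays. Green points are the brightest probe, used for the gene, and grey points the others. The probes of Lss, Insig1, Nsdhl and Fasn lie on the same side of 0, and those of Stard4 and Hsd17b7 do not.

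Other genes of lipid metabolism, listed by pathway, gave the surroundings. The lists were chosen with earlier results of these data known, so their counts are a description only. Of 13 tested genes of other sterol steps and SREBP processing (14 listed), 5 were higher and 4 lower in AngII with a median log2 ratio of -0.02. Erg28, whose yeast counterpart tethers sterol enzymes to each other, was 0.47 (0.42 to 0.49 over the arrays) and Aacs, an acetoacetyl-CoA ligase, -0.46 (-0.55 to -0.40). Erlin2, which takes part in the degradation of HMG-CoA reductase, was 0.39 (0.32 to 0.47). Each of these had a limma adjusted p of 4.66e-11 or less.

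Of 18 tested genes of cholesterol uptake, efflux and storage (20 listed), 10 were higher and 6 lower with a median of 0.11. Nceh1, a hydrolase of cholesterol esters, was 1.08 (1.00 to 1.14), a 2.12-fold higher level in AngII. Nr1h2, an oxysterol receptor, was -0.48 (-0.55 to -0.42).

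Of 23 tested genes of other fatty acid and lipid synthesis (25 listed), 14 were higher and 6 lower, with a median of 0.18. Acsl1, which activates long fatty acids, was 0.56 and Dgat2, which completes triglycerides, 0.52, whereas Agpat2, an acyltransferase of the same route, was -0.58. Hacd3, a dehydratase of the elongation cycle, was 0.44. Of 20 tested genes of fatty acid oxidation (22 listed), 16 were higher and 4 lower, and the median was 0.31. That is 80% higher, beside 39.1% of all features. The share was 60.9% in the lipid synthesis list, 55.6% in the uptake list and 38.5% in the other sterol list. The oxidation genes were also brighter, with a median log2 intensity of 10.34 against 8.42 over all features. Ppargc1a, a coactivator of mitochondrial and oxidative genes, was 0.96 (0.88 to 1.06), and Pparg, the adipogenic nuclear receptor, was 0.66 (0.42 to 0.90). Acads, the short-chain dehydrogenase, was -0.78 (-0.92 to -0.63).

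**Figure D5:**
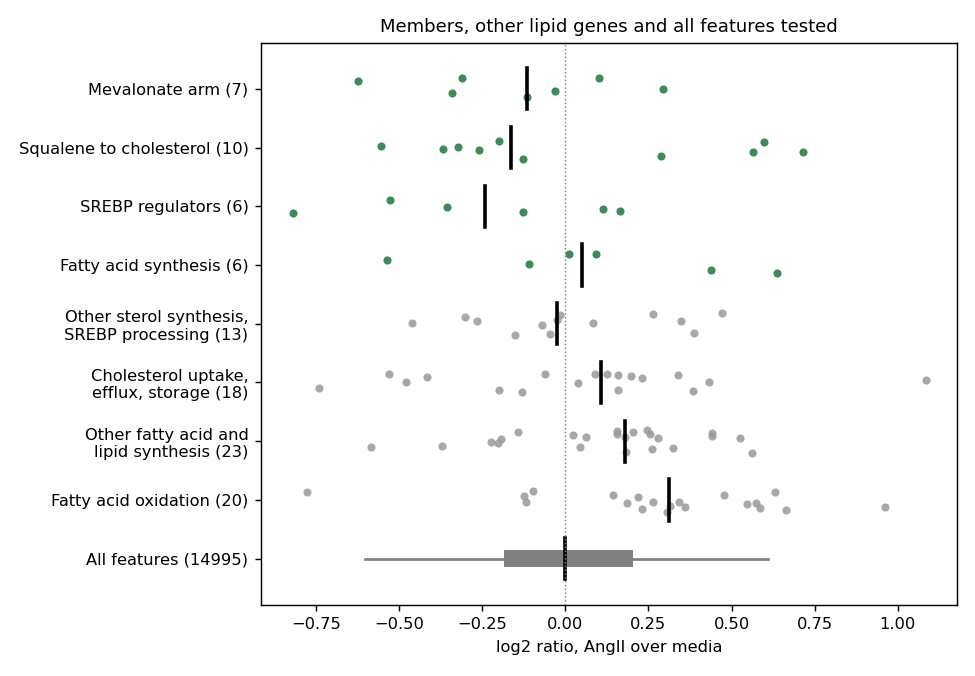
Log2 ratio of AngII over media (x axis) of the genes in each list (y axis, number of tested genes in brackets). Green points are the 29 genes of the set by role, grey points the other lipid genes, black bars the medians. In the bottom row the thick bar spans the 25th to 75th percentile of all features and the thin line the 5th to 95th, which run from -0.60 to 0.61. The SREBP regulators, counted with Stard4, have the lowest median, -0.24, and the fatty acid oxidation list the highest, 0.31.

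In the authors' deposited table, whose log2 ratios correlated at 0.995 with those computed here over 14995 features, 28 of the 29 genes had the same sign. The largest gap between the authors' deposited table and the ratios here was 0.08 over the 29 genes. That table called 24 of them, 9 higher and 15 lower in AngII, beside 10510 of the 14995 features.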

How the data were processed

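RNA of intact ureteric buds (300 ng per labelling) was read on 4 two-colour Agilent arrays. Per the file headers, images were quantified by Feature Extraction 10.5.1.1. The deposited intensity values are median signals and backgrounds, uncorrected, and Agilent's processed intensity values, which are background-subtracted and dye-normalised. A log10 ratio of red over green is deposited too but was not used. The authors' deposited table gives log2 ratios, mean log2 intensities, adjusted p-values and a call, a score of -1, 0 or 1; limma is named in the submitters' processing notes, and its normalisation is not given in the sources used here.

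The tools were R 4.3.3 and limma 3.58.1. Background correction was normexp (offset 50), followed by loess within each array that gave control spots no weight. Outlier spots were dropped, a probe's spots were averaged, and arrays with AngII in Cy3 were turned. Levels are channel values after Aquantile. A probe was kept if well above background in AngII or media RNA on all 4 arrays (19373 of 41174 probes), and the brightest was used for a gene. The 2 arrays of a number were averaged, and lmFit and eBayes tested the 2 ratios against 0, Benjamini-Hochberg adjusted over 14995 features. Precision is limited by the number of arrays. The test was checked on simulated data.

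Probe accessions were matched to RefSeq (GRCm38.p6), which named 25097 probes. Since the array annotation is mm9, coordinates are those of the RefSeq promoters.

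Full values are given for genes with an absolute log2 ratio of 0.5 or more and for 8 regulators and enzymes fixed by name; outside the set, the 4 genes with the smallest p per list are named, except some that are not reported here. Members and lists were chosen with earlier results of these data known. Each array pairs AngII and media RNA of 1 number, and this pairing is kept in its ratio.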

Additional observations from a re-analysis of the deposited data

Results flagged for a closer look

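Scap, Insig2 and Fdps changed sign with the dye orientation on all 4 arrays, so that both arrays with AngII in Cy5 gave one direction and both with AngII in Cy3 the other. Scap differed by -0.70 on the log2 scale between the orientations, at -0.48 with AngII in Cy5 and 0.22 with AngII in Cy3 (limma adjusted p = 3.7e-05 for the dye term). Insig2 differed by 0.53, at 0.43 and -0.10 (limma adjusted p = 0.00014), and Fdps by -0.36, at -0.21 and 0.15 (limma adjusted p = 0.00112). What sets the 2 orientations apart in these genes was not tested.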

How the results depend on the processing

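The direction and call of Fdft1, Lss, Msmo1, Nsdhl, Ebp, Srebf2, Insig1, Stard4 and Scd2 held under each of the 12 alternatives with a test, a share of 31.0% beside 30.4% of all features, though Stard4 shrank to -0.099 as a mean of its probes. Agilent's processed signals called 21 genes, 7 higher and 14 lower, beside 9618 of 14995 features. They gave medians of -0.33 for the SREBP regulators and -0.10 for fatty acid synthesis. With them Acly turned to -0.010 and Acaca to -0.41 and past the threshold. The mean of a gene's probes moved the regulators' median to -0.11, and arrays with AngII in Cy5 alone moved it to -0.32. Arrays with AngII in Cy3 alone called 16 genes, 7 higher and 9 lower (55.2%, beside 75.4% of all features), and turned the medians of the whole set and of the sterol steps to 0.0058; Hmgcs1 became 0.020, Mvk 0.0058, Fdps 0.15, Scap 0.22 and Insig2 -0.10. With AngII in Cy5 alone Srebf1 became -0.020 and Acaca -0.081. Acaca also turned to -0.071 without background correction, -0.069 in the authors' deposited table, -0.029 with median centring and -0.00058 as a mean of probes, and lay between -0.092 and 0.11 without a replicate. Fdps turned to 0.052 with median centring. The replicate block without a dye term called 4641 features and 9 genes of the set, 3 higher and 6 lower. With a dye term it called 11415 features and 27 genes (11 higher, 16 lower). The shorter SRE core was found in 3 of the 24 genes with a promoter entry (12.5%, beside 6.9% of tested genes). Without a replicate the medians were values with no test: -0.12 to -0.11 for the set, -0.13 for the sterol steps, -0.25 to -0.23 for the regulators and 0.02 to 0.08 for fatty acid synthesis. The cause of these changes was not tested. The 2 pairs count as 1 independent pair, so no value here has a check in a second one.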
